A study of Mus musculus with 12 samples.

Results

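The 45 genes described here encode nuclear subunits of the mitochondrial respiratory chain: 27 of complex I, 4 of complex II, 6 of complex III, 6 of complex IV and 2 of complex V. Ndufa4 is grouped with complex I by its symbol, although its product is now counted with complex IV. The genes were listed by symbol, and for each one the ATAC-seq peaks within 1 kb of a transcription start site (TSS) were taken from the peak lists of cultured cortical neurons. Peaks of all 12 lists were merged into 263785 regions, of which 85 lay near 43 of the 45 genes. Of these 85 regions, 51 were called in all 12 lists, 34 in fewer, and 16 of the latter in 1 list. Ndufs3 and Uqcrc1 had no region in any list.

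ATAC-seq maps open chromatin by the sites where the transposase Tn5 can insert sequencing adapters. The neurons came from the cortex of wild-type C57BL/6 mouse embryos at embryonic day 18, and each of 4 groups had 3 libraries, all of batch 1. PBS neurons received the vehicle for 7 days. PFF neurons received alpha-synuclein pre-formed fibrils, seeds that make the neuron's own alpha-synuclein aggregate, for 7 days; the study's methods name human wild-type protein. PFF+MLi-2 neurons received PFF for 7 days together with MLi-2, which blocks the kinase activity of LRRK2, over the last 5 days. PFF+Rab5 ASO neurons received PFF for 7 days and antisense oligonucleotides (ASO) against Rab5, the small GTPase of early endosomes, for the last 3 days; the methods name Rab5a and Rab5b as targets. The 12 libraries hold no group given MLi-2 or ASO without PFF and no group given a control oligonucleotide, so an effect of either agent by itself and an effect on neurons given PFF cannot be told apart. The study's methods count the embryos of 1 pregnancy as 1 biological replicate, with the cultures of a pregnancy divided among the groups, and call the ATAC-seq libraries biological triplicates. The labels do not say which pregnancy a library came from.

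The respiratory chain passes electrons from NADH (complex I) and succinate (complex II) through ubiquinone to complex III, cytochrome c and complex IV, and the proton gradient so made drives ATP synthesis by complex V. Neurons depend on it for most of their ATP, and inhibitors of complex I are classic means of producing parkinsonism. Its subunits are made from both genomes of the cell, the nuclear and the mitochondrial, and the nuclear genes are transcribed in almost every cell type from CpG-rich promoters bound by factors such as NRF1, GABPA of the ETS family, YY1 and the oestrogen-related receptors (ERR).

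Some of these promoters carried the letters such factors read. For each of the 43 genes the 201 bp centred on the peak summit were searched in GRCm38 on both strands. The YY1 motif AAGATGGC was found at 6 of 43 promoters (14.0%), against 2.73% of the 21036 promoter regions called in all 12 lists, which include these genes. The genes were Ndufa2, Ndufa9, Ndufb8, Ndufc1, Ndufs4 and Sdhc, of which 5 are grouped with complex I, as are 26 of the 43. The sites of all but Ndufa2 are printed to show where they lie, with the motif in capitals and read in the direction in which the gene is transcribed.
Ndufa9: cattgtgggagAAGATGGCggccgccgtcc
Ndufb8: cggagaaggtgAAGATGGCtgccgcccggg
Ndufc1: gcctgcggaacAAGATGGCgccgtccgtag
Ndufs4: ttgcctacaggAAGATGGCggcggtctcaa
Sdhc: ggccggaactcAAGATGGCtgcgttcttgc
The 30 bases lie at chr6:126849097-126849126, chr19:44555386-44555415, chr3:51408915-51408944, chr13:114388041-114388070 and chr1:171150563-171150592, all on the minus strand of GRCm38. Their centres lay 14, 4, 34, -2 and 10 bp from the nearest annotated TSS, where a negative value is upstream, and the centre of the Ndufa2 site lay 38 bp from its TSS. All 6 sites had the same orientation as the gene.

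The NRF1 motif CGCATGCG, which reads the same on both strands, was found at Ndufa8, Ndufa13 and Cox6c (6.98%), against 2.14% of promoter regions. The ERR motif TCAAGGTCA was found at Sdhd alone (2.33%), against 0.105%. These sites are printed because the factors are the ones best known for this gene family.
Ndufa8: ggtaccatctgCGCATGCGtctccagcgac
Ndufa13: ttgctggagagCGCATGCGcatcctcgatt
Cox6c: ttccagcagcaCGCATGCGcaagagtcgat
Sdhd: tttcgagggcTCAAGGTCActctacaaccc
The sites lie on the plus strand of GRCm38 at chr2:36049329-36049358, chr8:69903321-69903350, chr15:35938169-35938198 and chr9:50603795-50603824, with centres 62, -778, 24 and 3 bp from the TSS. The ETS motif CCGGAAG was found at 8 promoters (18.6%), against 9.93% of promoter regions: Ndufb7, Ndufb9, Ndufs1, Ndufs8, Sdhb, Sdhd, Cox4i1 and Cox5b.

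High promoters in general held the YY1, NRF1 and ETS motifs more often than promoters at large. Among the 7805 promoter regions with the highest fold enrichment (a mean percentile of 90 or more, defined below), 4.71% held the YY1 motif, 4.02% the NRF1 motif and 19.1% the ETS motif. Among the 12503 main regions of protein-coding genes, chosen 1 per gene as the 43 were (also defined below), the shares were 3.61%, 3.13% and 14.4%. The share of the 43 stood on 6 promoters for YY1, 3 for NRF1 and 8 for ETS. In the 300 bases of the RefSeq promoters, which 33 of the genes had, the NRF1 motif was at 1 (3.03%), against 1.87% of all RefSeq promoters, and the NFY motif CCAAT at 36.4%, against 37.4%. The CREB motif TGACGTCA was at 3 of the 43 promoters (6.98%), against 2.32% of promoter regions and 3.89% of the high ones. The SP1 motif GGGCGG was at 51.2% of the 43 promoters, against 49.7% and 64.3%, and against 63.0% of the main regions of coding genes. In the summit windows the NFY motif was at 20.9%, against 28.3% and 36.8%, and the E-box CACGTG at 1 promoter, Uqcrq (2.33%), against 6.92% and 8.97%. No motif contains another, though their occurrences may overlap. These are matches of letters in 1 window per gene and were given no test. The 43 windows had a median GC content of 61.7%, against 62.7% for promoter regions and 65.7% for the high promoters, and more CpG, with an observed-to-expected ratio of 0.915 against 0.712 and against 0.833 for the high promoters.

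**Figure D1:**
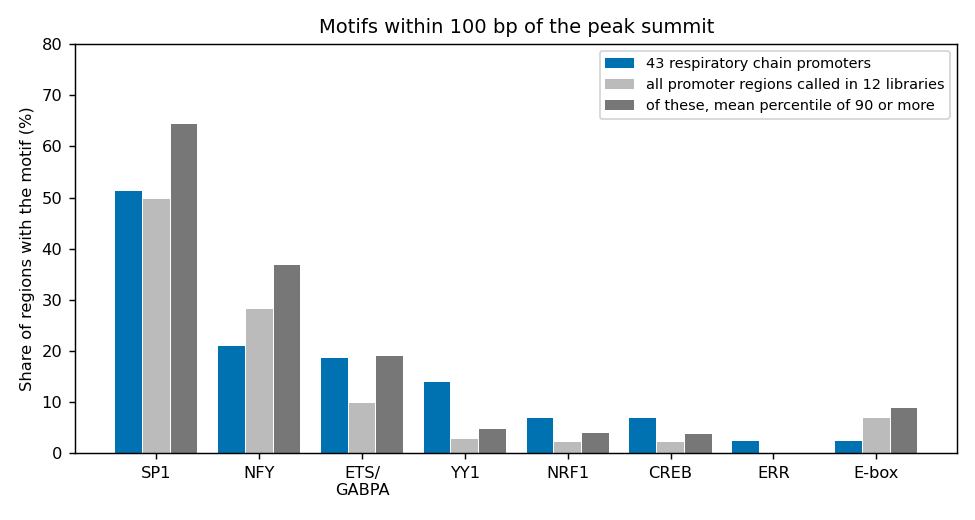
Share of regions, in percent, with each of 8 motifs within 100 bp of the peak summit. Blue bars are the 43 respiratory chain promoters, light grey bars all 21036 promoter regions called in 12 libraries and dark grey bars the 7805 of these with a mean fold percentile of 90 or more. YY1 stands at 14.0% in the blue bar against 2.73% and 4.71% in the grey ones, whereas SP1 stands at 51.2% against 49.7% and 64.3%.

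Each of the 43 genes with a region had 1 main region, the one called in most libraries and, at a tie, with the highest mean percentile of fold enrichment, and all 43 main regions were called in all 12 lists. Of these, 42 covered a TSS of their gene. The exception was Ndufa13, a complex I accessory subunit, whose main region is shared with Tssk6 and Yjefn3 and has its summit at -696 bp, counted from the TSS with upstream negative. The summits of 39 lay within 100 bp of the TSS, with a median offset of -19 bp. At 17 of the 43 genes the TSS of another coding gene on the opposite strand lay within 1 kb of the region. Among these pairs were Ndufs6 with Mrpl36, Ndufb5 with Mrpl47 and Sdhd with Timm8b, whose partners also encode mitochondrial proteins. A peak between such a pair cannot be assigned to one of its genes.

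The height of a peak was read as the percentile of its fold enrichment over local background among all peaks of the same library. The median of the mean percentiles of the 43 main regions over 12 libraries was 96.7, against 83.0 for all promoter regions and 73.7 for all 72465 regions called in 12 lists. Those 2 backgrounds hold minor peaks too, whereas a main region was chosen partly by this percentile. The same choice of 1 main region for every protein-coding gene, a comparison added after the values were seen, gave 12503 regions called in all 12 lists with a median of 92.0. The mean was 90 or more at 34 of the 43 (79.1%), against 56.8% of these coding gene regions, and at 34 of all 51 member regions called in 12 lists (66.7%), against 37.1% of all promoter regions. In width the 43 had a median of 680 bp, against 650 bp for the coding gene regions. These levels were given no test. By library the median over the 43 ran from 96.1 in PFF replicate 2 to 97.7 in PFF+MLi-2 replicate 2. The group means of these library medians were 96.8 for PBS, 96.5 for PFF, 97.2 for PFF+MLi-2 and 97.1 for PFF+Rab5 ASO.

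The complexes overlapped in this measure. Complex I genes had a median of 95.7, from 77.0 at Ndufs7 to 99.7 at Ndufv1, and Ndufb8, an accessory subunit, lay nearest the middle at 95.4. Complex II had a median of 98.9, with Sdha, the flavoprotein that oxidises succinate, at 99.0 and Sdhc, a membrane anchor, highest at 99.1. Complex III had a median of 98.8, from 90.9 at Uqcrq to 99.5 at Uqcrb, with the Rieske iron-sulphur protein Uqcrfs1 at 98.8. Complex IV had a median of 96.8, from 86.2 at Cox4i1 to 99.9 at Cox7c, with Cox5a at 97.1. In complex V, Atp5b, the catalytic beta subunit, and Atp5o, which joins the catalytic head to the stalk, both stood at 97.9. Thus each of complexes I to IV held both promoters near the top of the lists and promoters clearly below it.

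The highest 3 were Cox7c, a small complex IV subunit (99.9), Ndufv1, the subunit that binds NADH (99.7), and Ndufb3, a complex I accessory subunit (99.6). Cox7c was at 99.8 or higher in all 12 libraries. The lowest 3 were Ndufs7, an iron-sulphur subunit of complex I (77.0), Ndufb10, an accessory subunit (79.3), and Sdhb, the iron-sulphur subunit of complex II (84.5). Ndufs7 ran from 72.5 in PFF replicate 2 to 80.9 in PFF+Rab5 ASO replicate 2.

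A low fold did not mean few fragments. The fragment count at the summit and the local background were recovered from the fold and p-value of each peak. Sdhb had 65 to 77 fragments at its summit, among the most of the 43 genes, over a median background of 7.72 fragments, the highest of the 43. Ndufs7 had 51 to 60 fragments over a background of 6.76, and Ndufb10 had 48 to 58 over 5.89, against a median background of 3.53 over the 43. Ranked by -log10 p instead, which also grows with the fragment count, these 3 genes stood at a mean percentile of 92.5 (Ndufs7), 92.0 (Ndufb10) and 96.9 (Sdhb). The genes with the fewest fragments were Ndufs4, an accessory subunit whose loss causes Leigh syndrome, with 19 to 35, and Cox6c, a complex IV subunit, with 21 to 35. Their backgrounds were among the lowest, at 1.78 and 1.98, and by -log10 p they stood at 83.9 and 84.7. Over all 43 genes the library medians were 50 to 59 fragments, against 16 to 18 for all peaks, so these promoters rest on more fragments than most peaks of the same lists.

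**Figure D2:**
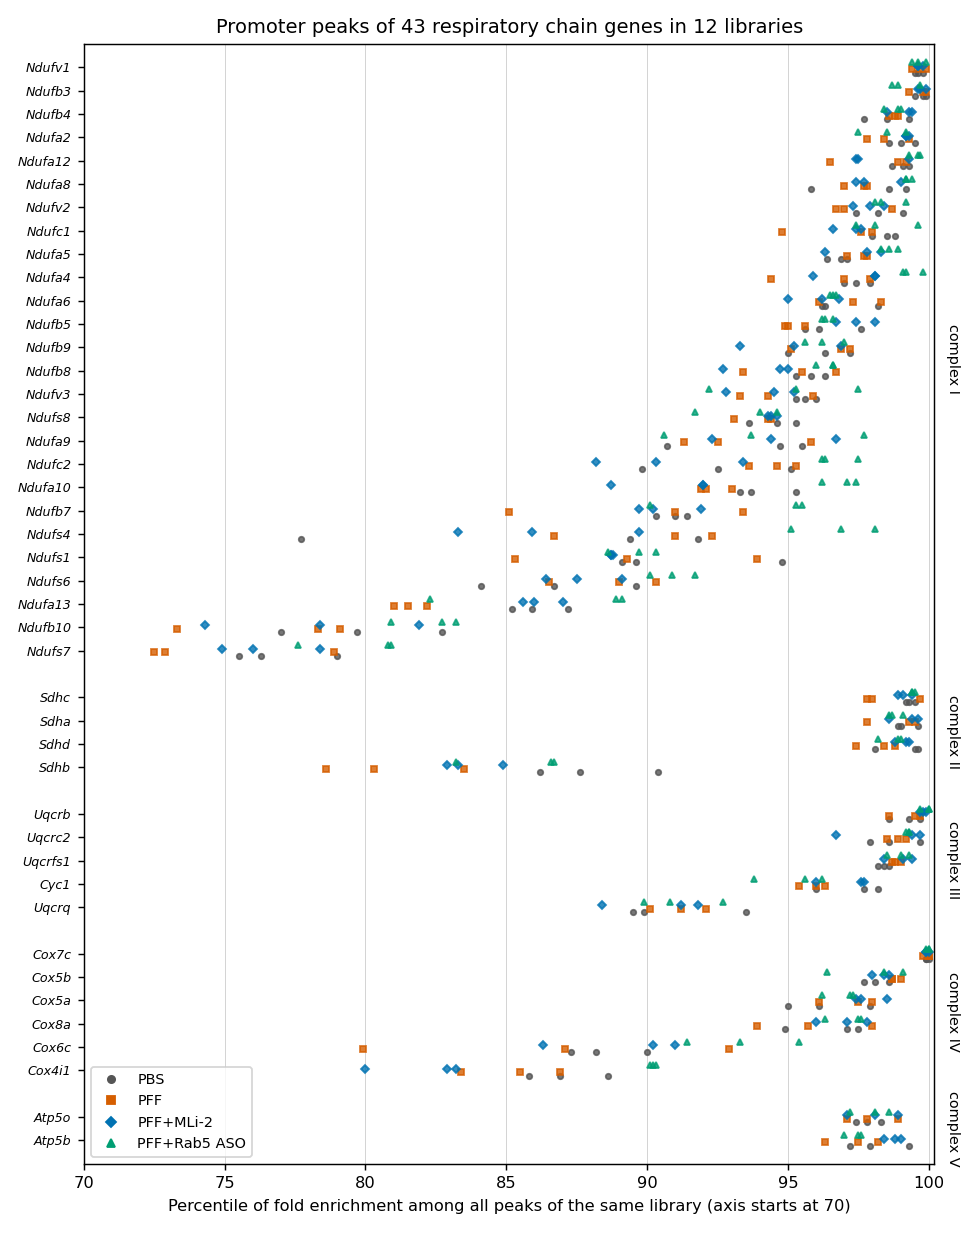
Percentile of fold enrichment (horizontal axis, starting at 70) of the main promoter peak of 43 respiratory chain genes in each of 12 libraries, ordered by complex and by mean. Each point is 1 library, with its group given by colour and shape. Most genes sit above 90 in all groups, Cox7c at 99.8 or higher throughout, and Ndufs7, Ndufb10 and Sdhb form the low end.

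Ndufs3, a core subunit of complex I, and Uqcrc1, a core protein of complex III, had no peak within 1 kb of a TSS in any of the 12 lists, nor within 2 kb. Ndufs3 (chr2:90894634-90904827, minus strand) lies in a stretch of 206 kb with no peak in any list, and Uqcrc1 (chr9:108936633-108949623, plus strand) in a stretch of 169 kb. They are the only 2 of the 45 genes that RefSeq also places on a FIX patch of GRCm38.p6, a second copy of the sequence released as a correction. Over all protein-coding genes, 14 of the 256 with such a copy had a region (5.47%), against 15047 of the 20380 without one (73.8%). Whether reads from these genes were lost in alignment was not tested, and their promoters were not measurable here. The same holds in the wider pathway: of 38 other subunit genes, Atp5a1 and Cox8b had no region, and of 43 assembly factor genes Cox20 had none. Atp5a1, the alpha subunit of ATP synthase, and Cox20 have a patch copy, and Cox8b, a muscle isoform, has none.

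The whole series bears on these values in a few ways. The lists held 137417 to 184717 peaks, and relative depth, derived from the background of each list, was 0.912 to 0.976 for the PBS libraries, 0.775 to 0.919 for PFF, 0.957 to 1.03 for PFF+MLi-2 and 1.05 to 1.31 for PFF+Rab5 ASO. The smallest peak was 53 to 59 bp wide in the PFF+Rab5 ASO lists and 62 to 66 bp in the others, so that fragment handling and the ASO treatment cannot be told apart. All 14 neuron markers had a promoter region called in 3 of 3 libraries of every group. Astrocyte markers had one at 6, 5, 6 and 4 of 6 genes in PBS, PFF, PFF+MLi-2 and PFF+Rab5 ASO, oligodendrocyte lineage markers at 4, 5, 5 and 4 of 7, and endothelial markers at 1 of 4 in each. Microglia markers had one at 2 of 6 in PFF and 0 of 6 in the other groups, with Cx3cr1, Aif1 and Itgam without a region in any list. In bulk cultures, fewer cells with an open promoter and less opening per cell cannot be told apart.

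The comparisons below share groups: PFF enters 3 of the 5 and PBS 3 of the 5, so that a low or high PFF library moves several of them. Opening and closing of whole regions was read as a peak in 3 of 3 libraries of one group and 0 of 3 of the other. With 3 libraries against 3, an exact permutation test of 1 region cannot go below p = 0.1, so no region was tested in this way.

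All 43 main regions were called in all 12 lists, so none of them could count as gained or lost in any comparison. In PFF against PBS, 0 of the 78 member regions that the 6 lists contained were gained or lost, against 1.50% of all regions. In PFF+MLi-2 against PFF it was 0 of 77, against 2.01%, and in PFF+Rab5 ASO against PFF 0 of 77, against 4.57%. In PFF+MLi-2 against PBS it was 0 of 74, against 0.803%. In PFF+Rab5 ASO against PBS, 2 of 74 member regions were gained and 0 lost, against 3.58% of all regions gained or lost. Near promoters in general the shares were smaller, at most 1.26% in 1 direction, so counts of 0 to 2 among 74 to 78 regions stand near the background. Without PFF replicate 3 the counts were 3 in PFF against PBS, 2 in PFF+MLi-2 against PFF and 4 in PFF+Rab5 ASO against PFF, all of minor regions, and the shares of all regions rose as well, to 3.18%, 4.29% and 6.89%.

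Both gained regions were minor peaks beside a main region that was called throughout. The one at Cox6c (chr15:35937647-35937850) is 204 bp wide and lies 9 bp from the main region. It was called in all 3 PFF+Rab5 ASO libraries, at percentiles of 70.7, 33.0 and 23.3, and in PFF replicates 1 and 2, at 15.4 and 45.3, but in no PBS or PFF+MLi-2 library. With peaks required to cover 50% of the region, the Cox6c region no longer counted as gained, while the Ndufv3 region did. The one at Ndufv3, a complex I subunit (chr17:31521099-31521243), is 145 bp wide and lies 713 bp from the main region. It was called in all 3 PFF+Rab5 ASO libraries, at percentiles of 68.5, 19.3 and 47.3, and in PFF replicate 3 at 9.90. The ASO libraries were also the deepest and had the narrowest peaks, and the part of either in these calls was not tested.

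Differences in height were then tested with limma. Within each library the folds of the 72465 regions called in all 12 lists were ranked and turned into normal scores, so that a height score of 0 marks the middle region and a difference of 1 is 1 SD of all regions. All 43 main regions and 8 further regions of these genes entered the fit. None of the 51 passed an adjusted p of 0.05 in any of the 5 comparisons. The libraries were close to each other at these genes: the median SD of the score within a group was 0.19 for PBS, 0.20 for PFF, 0.14 for PFF+MLi-2 and 0.15 for PFF+Rab5 ASO, and the 95% interval of a difference reached 0.46 to 0.49 to either side at the median gene. This interval is for 1 region alone, and the adjustment over 72465 regions asks for a larger difference, so differences of this size were not detectable with 3 libraries a group.

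**Figure D3:**
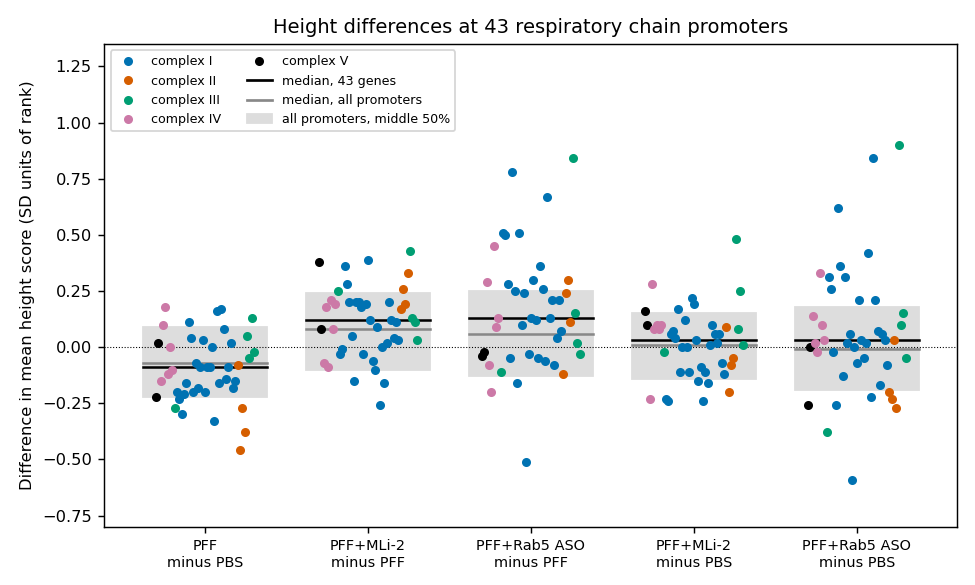
Difference in mean height score (first group minus second) at the main promoter region of 43 respiratory chain genes in 5 comparisons. Points are genes coloured by complex, black lines their medians, grey lines the medians of all 21036 promoter regions and grey boxes the middle 50% of these. Most genes sit inside the grey boxes. In the comparisons of PFF+Rab5 ASO, Uqcrb, Ndufa4, Ndufs4 and Ndufb3 stand furthest outside, and other genes lie outside too.

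PFF against PBS asks what the fibrils do to these promoters. The scores were lower in PFF at 29 of the 43 genes and higher at 14, with a median difference of -0.09, from -0.46 to 0.18. All promoter regions had a median of -0.07, with 37.4% of them higher, against 32.6% of the 43; the main regions of coding genes had a median of -0.08, with 33.5% higher. Ranked by -log10 p the median of the 43 was -0.02. By limma 0 of 51 member regions passed, against 0% of all regions. Of the 51, 0 had an unadjusted p under 0.05, against 9.72% of all regions and 5.55% of promoter regions. The height scores of the 2 groups did not overlap at 3 main regions, of which Uqcrfs1 was higher and Ndufa13 and Ndufc1 were lower in PFF, where 15.1% of all regions were higher or lower without overlap and, of promoter regions, 4.34% were higher and 10.3% lower.

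The lowest was Sdhb. Its percentile was 86.2, 87.6 and 90.4 in the PBS libraries and 80.3, 78.6 and 83.5 in the PFF libraries. All 3 PFF libraries lay below all 3 PBS libraries in percentile, although the height scores of PFF replicate 3 (0.42) and PBS replicate 1 (0.41) overlapped. The difference in score was -0.46 (95% interval -0.96 to 0.03, adjusted p = 0.537), and -0.28 when ranked by -log10 p. The next lowest were Sdhd, a membrane anchor of complex II, at -0.38 (adjusted p = 0.648), and Ndufc1, a complex I accessory subunit, at -0.33 (adjusted p = 0.664). The highest were Cox5b at 0.18, Ndufs4 at 0.17 and Ndufc2 at 0.16, with adjusted p of 0.828, 0.868 and 0.865. The difference at Ndufs4 was set by 1 library: without PBS replicate 2 it was -0.02. Ndufc2 was at 0.05 without PBS replicate 3 and 0.32 without PBS replicate 2, Ndufc1 at -0.20 without PFF replicate 3, and Sdhd at -0.24 by -log10 p. By complex, 8 of 26 genes of complex I, 0 of 4 of complex II, 2 of 5 of complex III, 3 of 6 of complex IV and 1 of 2 of complex V had higher scores in PFF, and 0 passed the test.

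PFF+MLi-2 against PFF asks whether the kinase inhibitor changes these promoters in neurons with fibrils. The scores were higher with MLi-2 at 32 of the 43 genes (74.4%), where 62.5% of all promoter regions and 67.1% of the main regions of coding genes were higher, and the median difference was 0.12 against 0.08. The median of the 43 was 0.07 without PFF replicate 3 and 0.04 when ranked by -log10 p. By limma 0 of 51 member regions passed, against 0% of all regions. Of the 51, 0 had an unadjusted p under 0.05, against 11.4% of all regions and 7.26% of promoter regions. At 6 main regions the MLi-2 libraries were higher without overlap (Ndufa13, Ndufb5, Ndufs8, Sdhb, Sdhd and Atp5b) and at 0 lower, where 10.1% of all regions were higher without overlap and 7.55% lower; among promoter regions it was 14.8% and 4.93%.

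The highest were Uqcrb, a small complex III subunit that helps to bind ubiquinone, at 0.43 (adjusted p = 0.531), Ndufb5 at 0.39 (adjusted p = 0.475) and Atp5b at 0.38 (adjusted p = 0.509). For Ndufb5 the height scores were 1.19, 1.19 and 1.33 in PFF and 1.62, 1.49 and 1.78 in PFF+MLi-2, with an interval of the difference of -0.03 to 0.82. The lowest were Ndufc2 at -0.26, Ndufs4 at -0.16 and Ndufa6 at -0.15, with adjusted p of 0.655, 0.810 and 0.815. Single libraries moved several of these values: Uqcrb was at 0.24 without PFF replicate 1, below Ndufb5, Ndufc2 at -0.17 without PFF+MLi-2 replicate 1, Ndufs4 between -0.29 without PFF replicate 2 and -0.08 without PFF+MLi-2 replicate 3, and Ndufa6 between -0.26 without PFF replicate 2 and -0.03 without PFF replicate 3. By -log10 p Uqcrb was at 0.25 and Ndufa6 at -0.36. Sdhb, the lowest gene in PFF against PBS, had scores of 0.53, 0.43 and 0.43 with MLi-2 against 0.11, 0.06 and 0.42 in PFF, a difference of 0.26 (interval -0.18 to 0.70, adjusted p = 0.646). The same PFF libraries enter both comparisons.

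PFF+MLi-2 against PBS sets the inhibitor group beside neurons given only the vehicle. The scores were higher at 26 genes (60.5%, against 52.0% of promoter regions) and lower at 17, with a median of 0.03 against 0.01 for promoter regions. By limma 0 of 51 passed, against 0% of all regions. Of the 51, 0 had an unadjusted p under 0.05, against 5.77% of all regions and 3.22% of promoter regions. Without overlap, 1 main region was higher (Uqcrb) and 2 were lower (Ndufc1 and Cox4i1), where 5.21% of all regions were higher and 5.12% lower, and of promoter regions 5.04% and 4.56%. The highest were Uqcrb at 0.48 (interval -0.02 to 0.98, adjusted p = 0.867), Cox5a at 0.28 and Uqcrfs1 at 0.25, and the lowest were Ndufc1 at -0.24, Ndufa12 at -0.24 and Ndufa10 at -0.23. The adjusted p of the other 5 genes ran from 0.948 to 0.965. Leaving out 1 library, Cox5a ran up to 0.42 (without PBS replicate 3), Uqcrfs1 down to 0.16 (without PFF+MLi-2 replicate 1), Ndufa12 from -0.43 to -0.15 (without PFF+MLi-2 replicates 2 and 1) and Ndufa10 to -0.13 (without PBS replicate 2). By -log10 p Uqcrb was at 0.28 and Ndufa12 at -0.15.

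PFF+Rab5 ASO against PFF asks the same of lowering Rab5. The scores were higher at 29 of the 43 genes (67.4%), where 59.2% of all promoter regions and 61.4% of the main regions of coding genes were higher, with a median of 0.13 against 0.06 and a range of -0.51 to 0.84. By limma 0 of 51 member regions passed, against 3.83% of all regions and 1.46% of promoter regions. The share of all regions fell whichever library was left out: with 1 of the 6 missing it was at most 1.37% (without PFF replicate 1) and 0% without PFF+Rab5 ASO replicate 1. Of the 43 main regions, 5 had an unadjusted p under 0.05 (11.6%), against 12.4% of promoter regions and 21.1% of all regions. All 5 were higher with the ASO: Ndufa4, Ndufa8, Ndufa10, Ndufs4 and Uqcrb. At 11 main regions the ASO libraries were higher without overlap and at 0 lower, where 13.5% of all regions were higher without overlap and 12.4% lower; among promoter regions it was 14.8% and 7.54%.

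Ndufa4 came nearest to the threshold. Its region is shared with Phf14, with the summit at -260 bp from the Ndufa4 TSS. The percentile was 97.9, 97.0 and 94.4 in PFF and 99.8, 99.1 and 99.2 in PFF+Rab5 ASO. The summit counts were 46, 42 and 38 against 56, 48 and 46 fragments. The counts are not scaled for depth, which was 0.775 to 0.919 in PFF and 1.05 to 1.31 in PFF+Rab5 ASO. All 3 ASO libraries had the higher scores. The difference in score was 0.78 (interval 0.28 to 1.28, adjusted p = 0.0826 by limma).

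Uqcrb had the largest difference, 0.84 (interval 0.16 to 1.53, adjusted p = 0.153). Its scores were 3.58, 3.19 and 2.43 in PFF+Rab5 ASO and 1.84, 2.51 and 2.31 in PFF, so that ASO replicate 3 lay below PFF replicate 2. Ndufs4, one of the genes with a YY1 motif at its TSS, had scores of 1.41, 1.22 and 1.72 with the ASO and 0.91, 0.52 and 0.89 in PFF, a difference of 0.67 (interval 0.18 to 1.16, adjusted p = 0.115). Its summit held 34, 30 and 35 fragments with the ASO and 27, 23 and 25 in PFF, so that the values rest on few fragments. These counts, too, are not scaled for depth. The lowest were Ndufb3 at -0.51 (interval -1.11 to 0.09, adjusted p = 0.317), Cox5b at -0.20 (adjusted p = 0.648) and Ndufa6 at -0.16 (adjusted p = 0.694). These 3 values leaned on single libraries: Ndufb3 was at -0.29 without PFF replicate 3, Ndufa6 at -0.04 without PFF replicate 3 and -0.27 without PFF replicate 2, and Cox5b at -0.03 without PFF+Rab5 ASO replicate 3 and -0.33 without PFF+Rab5 ASO replicate 1. By -log10 p Cox5b was at -0.01 and Ndufa6 at -0.42.

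PFF+Rab5 ASO against PBS shares the ASO libraries with the comparison before. The scores were higher at 26 of the 43 genes (60.5%, against 48.2% of promoter regions) and lower at 17, with a median of 0.03 against -0.01 for promoter regions. By limma 0 of 51 passed, against 1.63% of all regions (at most 0.0483% when 1 of the 6 libraries was left out). At 4 main regions the unadjusted p was under 0.05 (9.30%), against 9.89% of promoter regions and 18.7% of all regions. These were Ndufa4, Ndufs4 and Uqcrb, which were higher, and Ndufb3, which was lower. Without overlap, 7 main regions were higher and 2 lower (Cyc1 and Atp5b), where 11.4% of all regions were higher and 11.6% lower, and of promoter regions 8.86% and 9.01%. Uqcrb differed by 0.90 (adjusted p = 0.139), Ndufs4 by 0.84 (adjusted p = 0.102) and Ndufa4 by 0.62 (adjusted p = 0.171). At the other end Ndufb3 differed by -0.59 (adjusted p = 0.232). Cyc1, a cytochrome of complex III, differed by -0.38 (adjusted p = 0.401) and Sdhd by -0.27 (adjusted p = 0.587). Sdhd was at -0.17 without PBS replicate 1 and -0.43 without PBS replicate 2. For Ndufb3 the scores were 2.43, 1.87 and 1.98 with the ASO and 2.99, 2.36 and 2.71 in PBS, and the groups overlapped. Beside all these ASO values stand the deeper libraries and narrower peaks of that group, whose part was not tested.

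**Figure D4:**
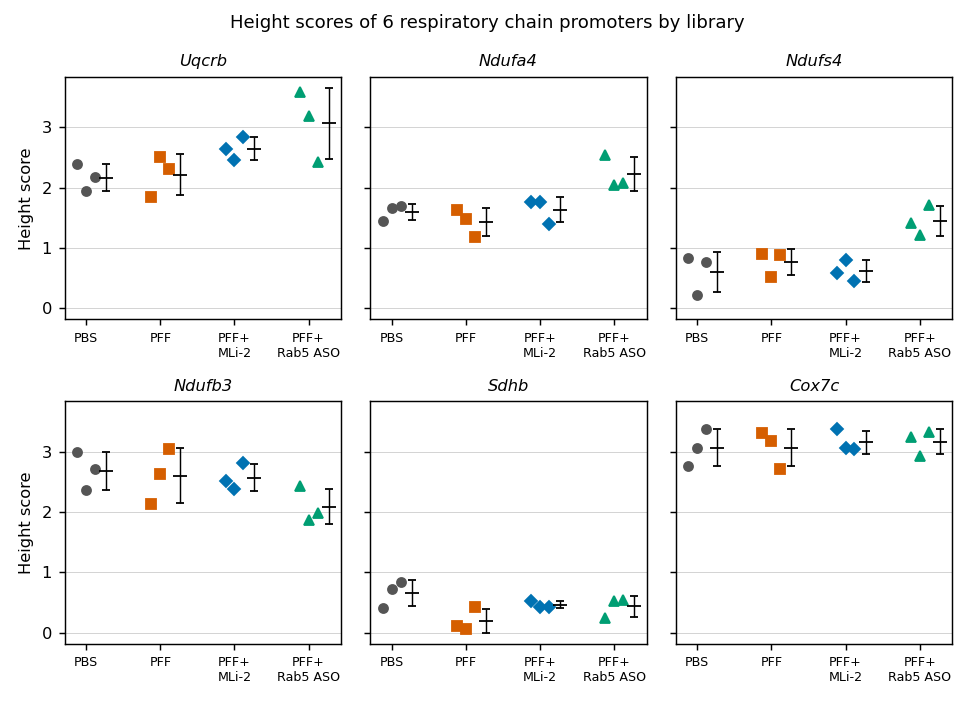
Height score (normal score of the rank of fold enrichment within a library) of 6 respiratory chain promoters by group. Coloured points are libraries, black bars the mean and SD of 3 libraries. The PFF+Rab5 ASO libraries sit above the PFF libraries at Ndufa4 and Ndufs4, with 1 library overlapping at Uqcrb, and Cox7c varies between 2.72 and 3.38 over all 12 libraries.

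The spread over the 12 libraries differed among the genes. It was smallest at Ndufs8, an iron-sulphur subunit of complex I (SD of the score 0.12), and largest at Uqcrb (0.49), and its median over the 43 was 0.22, against 0.27 for promoter regions and 0.36 for all regions.

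Among other genes of the pathway, too, none passed the test. Of 38 other subunit genes, 36 had a region and the main regions of 33 were called in all 12 lists, with a median percentile of 96.2. Of 43 assembly factor genes, 42 had a region and 41 were tested (median 97.5), and of 14 genes for regulators of mitochondrial biogenesis all were tested (median 95.5). By limma 0 rose and 0 fell in each of these 3 lists in each of the 5 comparisons, with smallest adjusted p of 0.139 for other subunits, 0.185 for assembly factors and 0.189 for regulators, all in PFF+Rab5 ASO against PFF. At most 3 genes of a list had an unadjusted p under 0.05 in a comparison (3 of the 41 assembly factors in PFF against PBS, where 9.72% of all regions and 5.55% of promoter regions had one), and 0 of their main regions were gained or lost.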

How the data were processed

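Libraries were assigned to the 4 groups of 3 from their titles and treatment labels. The description field calls the libraries given MLi-2 or ASO PBS-treated, against their titles, which were followed. The authors' methods state trimming (Trim Galore 0.6.7), alignment to the mouse genome GRCm38 (Bowtie2 2.5.1) and a MACS2 2.2.7.1 peak call for every library on its own. MACS2 options, duplicate handling and any Tn5 shift are not given in the sources used here. Each deposited peak has a score, its fold (a ratio of signal to local background), its significance as the -log10 of p and of q, and its summit. The score was not used. Fold and -log10 values were compared between libraries only as ranks.

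Peaks were merged where they overlapped by 1 bp or more. TSS came from GENCODE vM21, sequence from RefSeq GRCm38.p6, and coordinates are 1-based. The members and lists were chosen with earlier results of these data known. Genes named are those gained or lost, the 3 highest and 3 lowest in level and in each comparison, those without a region and the gene nearest the median of its complex; other names are stated with the count they belong to. For regions in all 12 lists, limma 3.58.1 (R 4.3.3) compared the 6 libraries of a comparison, with Benjamini-Hochberg adjustment over all 72465. MACS2 fold and p together gave back a whole summit count for 100% of peaks, within 0.001 in -log10 p (in proportion above a -log10 p of 10), where neighbouring counts differed by a median of 0.324 or more; this step and limma were tested on simulated data. Read totals were not used. The highest summit count of each list, 104 to 129, lay 1 to 5 below 2 times its smallest peak width, the limit set by keeping 1 read per position and strand, so heights of strong peaks may be compressed, and the limit is lower in the PFF+Rab5 ASO lists. Tests of 3 libraries against 3 have little power at the adjusted threshold. Python 3.11.15 with numpy 2.4.6, pandas 2.3.3 and scipy 1.17.1 was used.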

Additional observations from a re-analysis of the deposited data

How the results depend on the processing

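By limma, 0 member regions passed under every alternative run (replicate block, ranks by -log10 p, ranks within promoter regions, one fit on 12 libraries, regions called in the 6 libraries, each library left out), and the smallest adjusted p among them was 0.0520, for Ndufa4 in PFF+Rab5 ASO against PFF in the fit on 12 libraries. In that comparison the gene with the smallest adjusted p varied with the setting. It was Ndufa8 when ranked by -log10 p (0.0999) and with ranks within promoter regions (0.0918). With some single libraries left out it was Ndufs7, Ndufs4 or Uqcrb. Calls of minor regions moved more than the limma counts. With 2 of 3 libraries against 0 of 3, the member regions gained or lost were 4 in PFF against PBS (6.79% of all regions), 2 in PFF+MLi-2 against PFF (7.90%), 4 in PFF+Rab5 ASO against PFF (12.3%), 1 in PFF+MLi-2 against PBS (5.23%) and 3 in PFF+Rab5 ASO against PBS (10.7%). With peaks required to cover 50% of the region they were 1 in PFF+Rab5 ASO against PFF (Ndufc2; 5.84% of all regions) and 1 in PFF+Rab5 ASO against PBS (Ndufv3, without Cox6c; 4.30%). Leaving out 1 library in turn, they ran from 0 to 3 in PFF against PBS, 0 to 2 in PFF+MLi-2 against PFF, 0 to 4 in PFF+Rab5 ASO against PFF, 0 to 1 in PFF+MLi-2 against PBS and 2 to 3 in PFF+Rab5 ASO against PBS; the values of 3, 2 and 4 came without PFF replicate 3. None of these was a main region. Ranked by -log10 p, the median difference was -0.02 in PFF against PBS and 0.04 in PFF+MLi-2 against PFF. With ranks within promoter regions it was -0.04 in PFF against PBS, 0.07 in PFF+MLi-2 against PFF and 0.08 in PFF+Rab5 ASO against PFF. Leaving out 1 library, the median ran from 0.07 to 0.14 in PFF+MLi-2 against PFF and changed sign in PFF+MLi-2 against PBS (-0.02 to 0.06) and PFF+Rab5 ASO against PBS (-0.02 to 0.07), while Ndufs4 in PFF against PBS ran from -0.02 to 0.29. Among promoter peaks only, the median percentiles were 90.8 for PBS, 90.6 for PFF, 91.8 for PFF+MLi-2 and 91.0 for PFF+Rab5 ASO, and by -log10 p the PFF median was 97.2. In the 300-base RefSeq promoters of 33 genes the NFY motif was at 36.4% (37.4% of all RefSeq promoters), against 20.9% in the summit windows, and the NRF1 motif at 3.03%, against 6.98%. With a window of 500 bp or 2 kb, 43 genes still had a region.

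Whether libraries with the same replicate number share a pregnancy is not given in the sources used here, so the numbers were not taken as pairs. Correlations of same-numbered libraries were low (0.00513 to 0.0788), but over the 5 comparisons 29 of 30 best matches were with the same number. This is a hint of pairing from the data. The 30 matches come from only 12 libraries, used again in comparisons that share groups, so they are not independent. With the replicate block, 0 member regions passed (smallest adjusted p 0.0854, Ndufa4 in PFF+Rab5 ASO against PFF), and calls over all regions went from 2772 to 1671 in PFF+Rab5 ASO against PFF and from 1184 to 0 in PFF+Rab5 ASO against PBS. The main limits are 3 libraries a group, heights known only as ranks of peaks already called, and a depth and peak width that moved with the ASO group.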
